A study of Mus musculus with 12 samples.

Results

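Genes for cytokines, chemokines, interferons, their receptors and the JAK-STAT pathway that carries their signals were followed in the small intestine of fed and fasted mice. The members were chosen by a rule on names, set with earlier results of these data known, so their shares are not a blind test. The rule took every non-control probe whose gene name in the 12 h array files begins with Il, Ccl, Ccr, Cxcl, Cxcr, Ifn, Ifi, Irf, Isg, Tnf, Socs, Cish, Stat, Jak, Tyk2, Tlr or Csf, followed by a number where such names carry one. This gave 114 of the 20281 probes tested, for 94 of the 18117 gene names in the files. Of these genes, 77 had 1 probe, 14 had 2 and 3 had 3. The array carried only part of the pathway, and neither Il6, Il10 nor Socs1 was among the 94 genes.

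The mice were 6-week-old males of the FVB strain, which were either fed or fasted for 12, 24 or 72 h, with 6 mice per time point and neither a genetic change nor a drug. By the study's methods, the animals stayed in metabolic cages and were warmed by an infrared lamp from 24 h on. Warming and fasting therefore cannot be told apart at 72 h. Each array measured a pool of full-thickness small intestine from 2 mice, labelled with Cy3, so that n = 3 pools per time point and 12 arrays in all. The other dye, Cy5, carried a common reference from the same 6 fed mice that made up the fed pools, so the fed pools and the reference are not independent, and dyes were not swapped. The source of the reference on the array of fed replicate 3 is labelled as the mice of its own pool, whereas its labelling protocol names the pool of 6 mice. The tissue holds epithelium, lamina propria, muscle and vessels together.

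Cytokines bind receptors that carry Janus kinases, which phosphorylate STAT proteins, and the STAT dimers move to the nucleus. Type I interferons act through a complex that includes STAT2 and IRF9 and binds the interferon-stimulated response element, whereas interferon-gamma acts through STAT dimers at gamma-activated sites, and interleukins 4 and 13 act mainly through STAT6. SOCS proteins and CISH are induced by these signals and dampen them. In the gut the pathway links the microbes in the lumen to the epithelium and to the many lymphocytes and plasma cells beneath it.

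Of the 114 probes, 67 were well above background on all 12 arrays and none carried a saturated spot. The median intensity of an array was 167 to 296 in Cy3 and 124 to 627 in Cy5, and the Cy5 median stood only 1.65 to 2.11 times above its background. The fed and 72 h files shared a format and a Cy5 median of 124 to 142, whereas the 12 h and 24 h files shared another, with Cy5 medians of 393 to 627. The comparisons of 12 h or 24 h with fed, and of 72 h with 24 h, therefore cannot be told apart from this difference in format, while 72 h against fed and 24 h against 12 h lie within a format. Even so, the fed and 72 h arrays were not alike: 79 to 92 members were well above background on a fed array and 101 to 113 on a 72 h array. Fed replicate 3 stood apart, with a mean correlation of 0.212 with the other fed arrays over all probes, against 0.827 to 0.846 among the 72 h arrays. Among the 12 h arrays it was 0.359 to 0.538, and all 12 arrays share 1 estimate of the spread. Values below are log2(Cy3/Cy5) after normalization, differences are on this log2 scale with the standard error (SE), and the threshold for a call was an adjusted p of 0.05 with limma over all probes.

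After 72 h of fasting, the interferon-induced genes Isg15, Ifi47 and Ifi30 and the interferon-response factors Stat2 and Isgf3g were lower, while the receptors Il4ra, Ifngr and Il10ra and the kinase Jak3 were higher. When each of the 12 arrays was left out in turn, these lower calls held in 12, 12, 9, 7 and 11 cases. The higher calls held in 9, 8, 3 and 4 cases, in the order named. In the sample channel Cy3 alone, Isg15, Ifi47, Il4ra and Ifngr were still called at 72 h, whereas Ifi30, Stat2, Isgf3g, Il10ra and Jak3 were not. Of the 114 members, 11 were lower and 6 higher than in the fed pools, which is 14.9% against 10.6% of all probes tested. The members called lower made up 9.65% of the members, against 5.7% of all probes, and those called higher 5.26%, against 4.85%. In this bulk tissue, fewer cells of a type and less RNA per cell cannot be told apart. The 3 pools at 72 h lay wholly below the 3 fed pools for 35 members, or 30.7% of them against 20.5% of all probes, and wholly above for 19, or 16.7% against 21.2%. Centring each array on its median in place of quantile normalization gave 3 higher and 17 lower. Without fed replicate 3 the number of members called fell to 6, among them Isg15, Ifi47, Tnfsf13b and Il13ra1, which were also called with all arrays, and Irf1, which was not. Without 72 h replicate 1 the number was likewise 6, whereas without 12 h replicate 3 it was 29.

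The earlier times gave fewer calls. At 12 h, 12 members were called, or 10.5% of the members against 10.8% of all probes. Of these, 3 were higher and 9 lower, where 4.8% of all probes were higher and 5.98% lower. With loess in place of quantile normalization 6 were higher and 6 lower. At 24 h, 9 were called, or 7.89% against 10.1%, of which 2 were higher and 7 lower, where 3.79% of all probes were higher and 6.3% lower. With loess these were 5 and 15. From 24 h to 72 h, 12 were called, or 10.5% against 10.6%, of which 3 were higher and 9 lower, where 5.93% of all probes were higher and 4.68% lower. Between 12 h and 24 h only Jak2 was called, or 0.877% against 2.9%, and it was higher at 24 h, as were 1.23% of all probes, while no member was lower, as were 1.67% of all probes. The members' share of lower calls was 7.89% at 12 h and again from 24 h to 72 h, above that of all probes, and their share of higher calls in these comparisons was 2.63% each, below it. These shares rest on 9 lower and 3 higher members each, and at 12 h they were even with loess. Both comparisons also cross the 2 file formats, so no trait of the members is read from them. At the thresholds of the study's methods, an unadjusted p under 0.01 and a 1.4-fold change, 18 members were called at 12 h (15.8% against 13.9% of all probes), 12 at 24 h (10.5% against 13.3%), 20 at 72 h (17.5% against 13%), 6 for 24 h against 12 h (5.26% against 8.23%) and 19 for 72 h against 24 h (16.7% against 13.5%). The members' median differences from fed were -0.08, -0.01 and -0.11 at 12, 24 and 72 h, beside -0.02, 0.02 and 0.01 for all probes. All 3 comparisons with fed use the same fed pools. Markers of other cells differed at these times: of 5 smooth muscle probes, Acta2, Actg2 and Des were higher at 12 h, by 1.71 to 2.36 on the log2 scale, and the mean of the list was -0.71 to 0.02 in the fed pools and 0.58 to 1.32 at 12 h. At 24 h the leukocyte genes Laptm5 (0.59) and Coro1a (0.81), the smooth muscle gene Des (2.02) and 1 of 2 probes of the granulocyte gene Mpo (1.01) were higher, and the plasma cell gene Igj (-0.79) was lower. Their part in the members' changes was not tested.

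**Figure D1:**
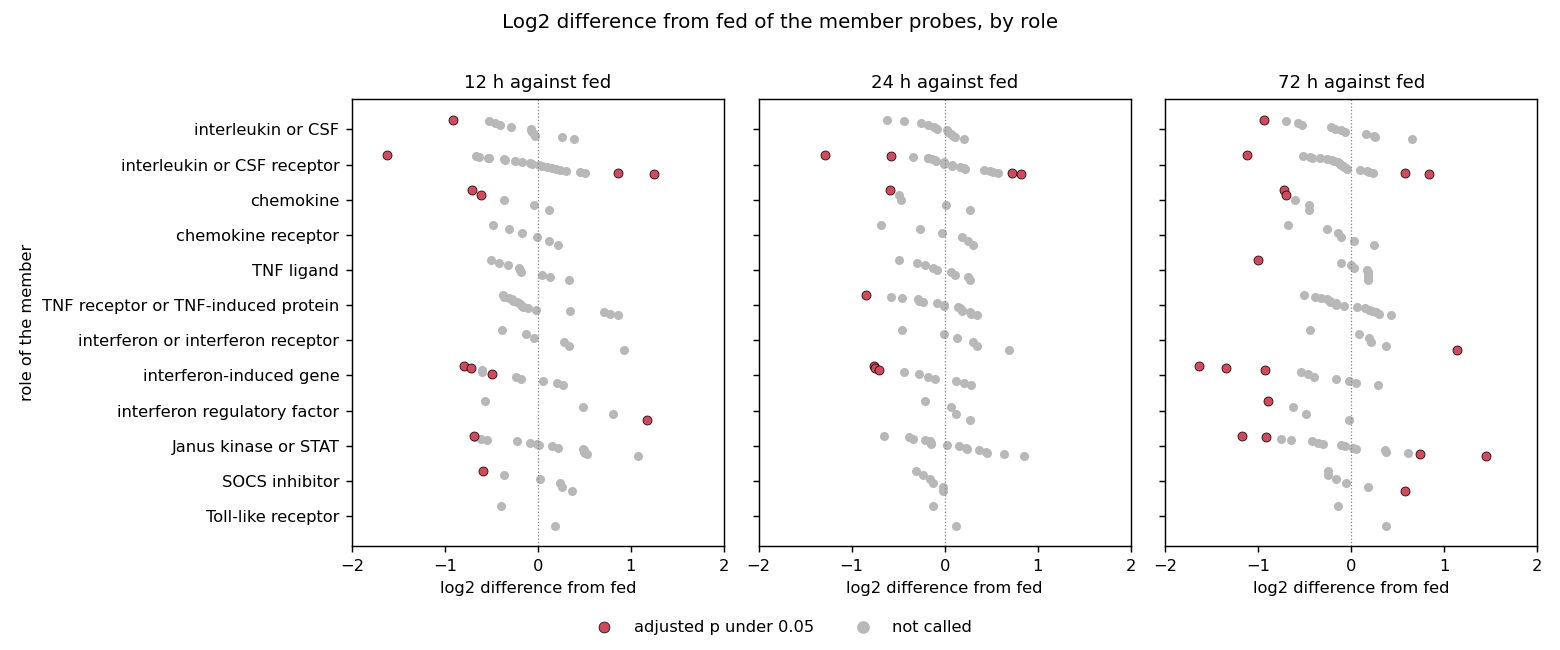
Difference in log2(Cy3/Cy5) from the fed pools for each of the 114 member probes, by role, at 12, 24 and 72 h of fasting, with the probes called at an adjusted p under 0.05 in red. At 72 h the called probes reach down to -1.63 (Isg15) among the interferon-induced genes and up to 1.45 (Jak3) among the kinases and STATs.

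Among the interferon-induced genes, 3 of 10 probes were lower at 72 h and none higher. Of all probes, 5.7% were lower and 4.85% higher. The median difference of these 10 probes was -0.43, with a range from -1.63 to 0.29. Isg15 encodes a ubiquitin-like protein that interferon induces and that is joined to other proteins. Its log2 ratios were 0.15, -0.07 and 0.76 in the fed pools. They were -0.49, -0.45 and -0.61 after 12 h, -0.25, -0.37 and -0.64 after 24 h and -1.46, -1.38 and -1.23 after 72 h. Every fasted pool was below every fed pool, and the 72 h pools were below all others. Isg15 was thus 3.11-fold lower at 72 h (difference -1.63, SE 0.20, adjusted p = 0.00031), and its level was also below fed at 12 h (1.74-fold, adjusted p = 0.023) and 24 h (1.63-fold, adjusted p = 0.038). From 24 h to 72 h it fell by 0.93 on the log2 scale (SE 0.20, adjusted p = 0.010).

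Ifi47, also known for its induction by interferon-gamma, encodes a GTPase of the family that defends cells against intracellular pathogens; it lies on chromosome 11 (GRCm38.p6, 49076587 to 49096987). Its log2 ratios were -0.05, -0.37 and 0.41 in the fed pools and -1.46, -1.30 and -1.28 at 72 h, and the groups did not overlap. The difference was -1.34 (SE 0.22, 2.54-fold lower, adjusted p = 0.0017). At 12 h, with ratios of -0.28, -0.84 and -1.06, it was 1.65-fold lower (adjusted p = 0.047) although fed replicate 2 lay below 12 h replicate 1, and at 24 h it was 1.68-fold lower (adjusted p = 0.044).

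The Ifi30 gene, for a lysosomal thiol reductase that prepares antigens for presentation, gave -0.52, -0.62 and 0.33 in the fed pools and -1.47, -0.87 and -1.23 at 72 h. All 72 h pools were below all fed pools, and the difference of -0.92 (SE 0.24, 1.90-fold lower) passed with an adjusted p of 0.025. Without fed replicate 3 it was -0.62 and no longer passed. Of the Ifi30 difference at 72 h, the Cy3 part was -0.50 and the Cy5 part 0.42. Ifit2, for a protein that binds viral RNA, was 1.41-fold lower at 12 h (-0.49, SE 0.15, adjusted p = 0.047), and at 72 h its difference of -0.46 missed the threshold (adjusted p = 0.063). Its neighbour Ifit3 differed by -0.60 at 12 h and -0.40 at 72 h, with neither value called. Ifi205, a member of the Ifi200 family of DNA-sensing proteins, was 1.70-fold lower at 24 h (adjusted p = 0.043). Its relatives Ifi202a, Ifi203 and Ifi204, which are close in sequence so that cross-hybridisation is possible, differed from fed by 0.21, 0.28 and -0.44 at 24 h and were not called. The change of Ifi205 lay in the reference channel, which differed by 0.80 while Cy3 differed by 0.04.

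**Figure D2:**
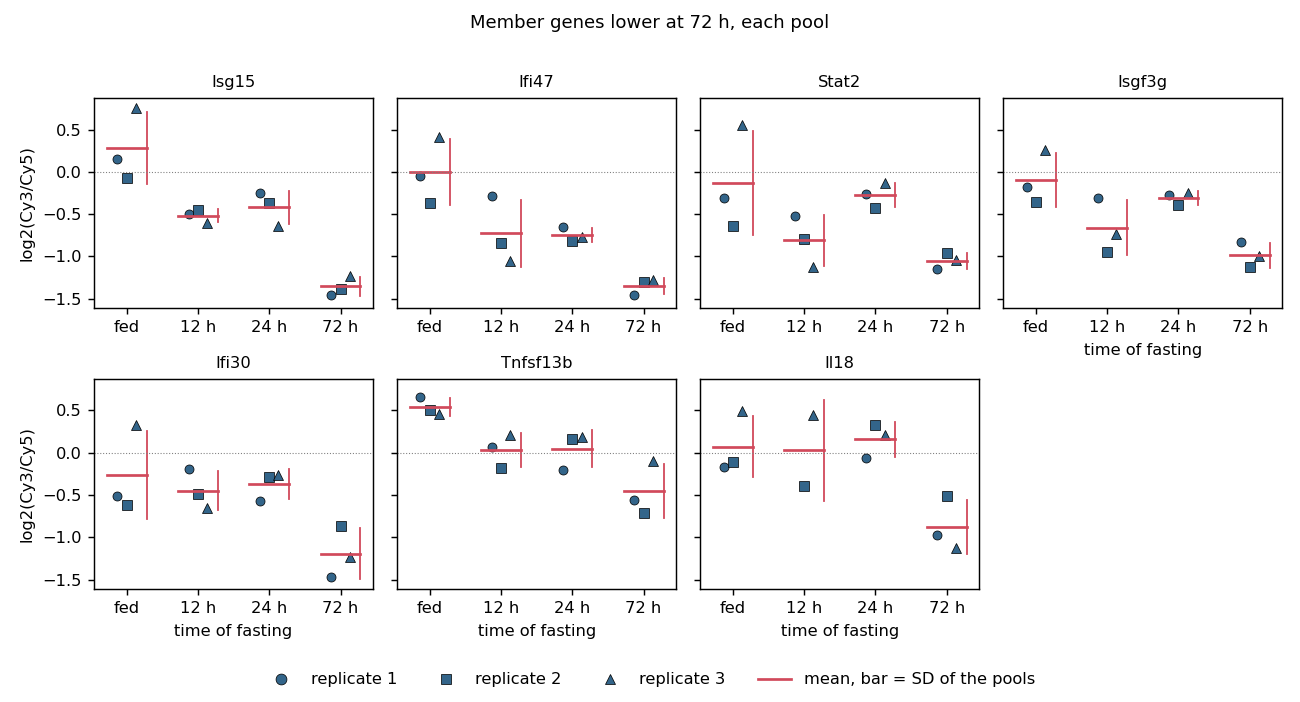
log2(Cy3/Cy5) of 7 members that were lower at 72 h, for each pool (a marker shape per replicate) with the mean (line) and SD (bar) of each time point. In all 7 panels the 3 pools at 72 h lie below the 3 fed pools, and in all but the Tnfsf13b panel fed replicate 3 is the highest fed pool.

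Stat2 and Irf9 belong to the complex that type I interferon activates. Stat2 gave -0.31, -0.64 and 0.56 in the fed pools and -1.15, -0.96 and -1.04 at 72 h, a 1.89-fold lower level (-0.92, SE 0.25, adjusted p = 0.031). Isgf3g, the array's name for Irf9, gave -0.18, -0.36 and 0.26 in the fed pools and -0.83, -1.13 and -1.00 at 72 h, a 1.85-fold lower level (-0.89, SE 0.20, adjusted p = 0.0098). For neither gene did the 72 h pools overlap the fed pools. Both calls needed fed replicate 3, without which the differences were -0.57 for Stat2 and -0.71 for Isgf3g and neither passed. With all arrays, the Cy3 parts were -0.66 for Stat2 and -0.71 for Isgf3g, and the Cy5 parts 0.26 and 0.18.

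The reference sequences of the promoters of these genes are shown where they hold the core of the interferon-stimulated response element, the sequence that the complex with Stat2 and Irf9 is known to bind. The window searched ran from 250 bases before to 50 bases after each RefSeq start site (GRCm38.p6) and the motif searched was TTTCNNTTTC on both strands. Capitals mark the matches, which on the gene's strand may appear as GAAANNGAAA.
Isg15, chr4:156200845-156200926, minus strand: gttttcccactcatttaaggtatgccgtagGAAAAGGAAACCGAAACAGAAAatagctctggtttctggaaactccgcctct
Stat2, chr10:128270248-128270315, plus strand: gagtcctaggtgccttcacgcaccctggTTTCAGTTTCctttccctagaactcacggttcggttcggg
Tnfsf13b, chr8:10006587-10006632, plus strand: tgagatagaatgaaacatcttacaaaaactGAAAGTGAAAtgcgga
Gbp2, chr3:142620574-142620643, plus strand: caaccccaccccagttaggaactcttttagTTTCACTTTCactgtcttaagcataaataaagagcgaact
The capitals of Isg15 hold 3 overlapping matches. Gbp2 is not a member but an interferon-induced GTPase gene described further on.

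Of the 94 member genes, 76 had a promoter window, and 9 of these (11.8%) held TTTCNNTTTC, against 1079 of 27025 genes (3.99%) in the annotation. Among the members lower at 72 h, 9 genes had a window and 3 held the motif, namely Isg15, Stat2 and Tnfsf13b. None of the 5 genes with a window that were higher at 72 h held it. The member promoters with the motif included some that were not called in any comparison, such as those of Ifit3, Ifi203 and Stat4. The gamma-activated site TTCNNNGAA, which is its own reverse complement, was found in 14 of the 76 genes (18.4%) against 9.55% of all genes, and in none of the 9 genes lower at 72 h. The 2 motifs overlapped in 24 of 32851 windows. A match of letters is not a bound site, and binding was not measured.

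The interferon regulatory factors Irf3 and Irf1 were not called at 72 h. Irf3, a sensor-activated factor upstream of interferon-beta, differed by -0.63 at 72 h (adjusted p = 0.079), with pools of -0.76, -0.78 and -0.72 below the fed pools of 0.01, -0.09 and -0.28. Irf1, itself induced by interferon-gamma, gave 0.47, 0.13 and -1.36 in the fed pools and -0.77, -0.58 and -0.87 at 72 h. With fed replicate 3 so far below, its difference was -0.49 (adjusted p = 0.41), and without it -1.04, which passed.

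None of the 6 probes of interferons and their receptors was called lower at any time. Of all probes, 5.98%, 6.3% and 5.7% were lower than fed at 12, 24 and 72 h. Ifng, the gene of interferon-gamma, differed by 0.28, 0.13 and 0.08 at 12, 24 and 72 h, none of them called, and was not well above background on any fed array. The 3 probes of Ifnar1, a chain of the type I interferon receptor, differed by 0.19 to 0.37 at 72 h and were not called. Ifngr, the ligand-binding chain of the interferon-gamma receptor now named Ifngr1, gave 0.16, 0.07 and -0.76 in the fed pools and 0.94, 1.11 and 0.84 at 72 h, without overlap. It was 2.20-fold higher at 72 h (1.14, SE 0.31, adjusted p = 0.028), and 0.85 without fed replicate 3, which no longer passed. Ifngr2, the signalling chain of the same receptor, differed the other way, by -0.44 (adjusted p = 0.13).

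Interferon-regulated genes outside the name rule, with further parts of the pathway, were taken from a list of 89 genes, of which 46 were measured by 60 probes. This list was likewise chosen with earlier results of these data known. At 72 h, 12 of the 60 probes were lower and 5 higher, with a median difference of -0.10, where 5.7% of all probes were lower and 4.85% higher. At 12 h 6 were higher and 4 lower, where 4.8% of all probes were higher and 5.98% lower. At 24 h 4 were higher and none lower, where 3.79% of all probes were higher and 6.3% lower. Usp18, the protease that removes ISG15 from proteins, gave 0.01, -0.29 and 0.81 in the fed pools and -0.99, -0.94 and -1.00 at 72 h, a 2.22-fold lower level (-1.15, SE 0.24, adjusted p = 0.0071). Psmb8, a catalytic subunit of the immunoproteasome, gave 0.62, 0.19 and -0.24 in the fed pools and -1.25, -1.02 and -1.39 at 72 h, 2.66-fold lower (-1.41, SE 0.33, adjusted p = 0.016).

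Oasl2 and Oas2 belong to the oligoadenylate synthetase family that senses double-stranded RNA, and were 2.23-fold and 1.74-fold lower at 72 h (adjusted p = 0.031 and 0.020). Mx2, an antiviral GTPase, Gbp2, the guanylate-binding protein whose promoter is shown above, and Tap1, of the peptide transporter for antigen presentation, were lower by 0.86, 0.90 and 0.98 on the log2 scale (adjusted p = 0.039, 0.0074 and 0.035). For Tap1 fed replicate 3 gave 0.96, beside -0.08 and -0.23 in the other fed pools. For each of the 7 genes named from Usp18 to Tap1, all 72 h pools lay below all fed pools, as they did for 20.5% of all probes. These 7 genes were picked from the probes called lower, so this adds no separate evidence. Fed replicate 3 was the highest fed pool for all of them but Psmb8, and omissions of 1 array were not examined for these genes. Other genes of the list were called in the other direction. Tap2, the partner of Tap1, was higher at 12 h (1.59-fold, adjusted p = 0.032) and 24 h (1.52-fold, adjusted p = 0.048) and was not called at 72 h. The interferon-gamma-induced GTPase gene Igtp was higher at 12 h (1.59-fold, adjusted p = 0.017), where its Cy3 part was -0.39 and its Cy5 part -1.06. At 72 h its pools of -0.65, -0.66 and -0.60 lay below the fed pools of -0.16, -0.40 and -0.42, a difference of -0.31 that was not called. The 2 probes of Ly6e, an interferon-induced surface protein, differed at 72 h by 0.80 (adjusted p = 0.021) and -0.44.

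Among the genes of that list that were higher at 72 h, Traf3, an adaptor of Toll-like and TNF-family receptors that leads to interferon production, gave 0.14, 0.55 and -0.08 in the fed pools and 2.52, 1.57 and 2.31 at 72 h. It was 3.82-fold higher (1.93, SE 0.36, adjusted p = 0.0036). Tirap, an adaptor of Toll-like receptors, was 2.07-fold higher (1.05, SE 0.21, adjusted p = 0.0056).

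**Figure D3:**
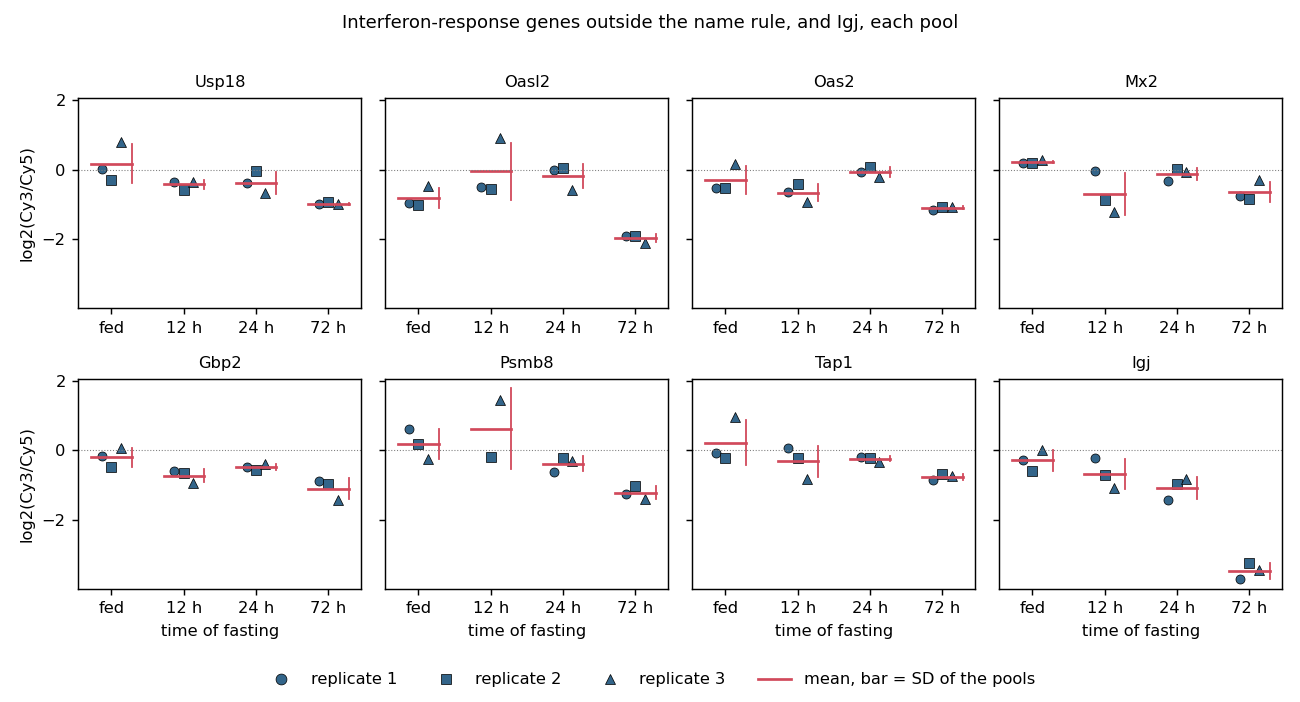
log2(Cy3/Cy5) of 7 interferon-regulated genes outside the name rule and of the plasma cell gene Igj, for each pool, with the mean (line) and SD (bar) of each time point. The mean is lowest at 72 h in all panels but that of Mx2, whose mean is lowest at 12 h.

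Markers of immune cells also moved at 72 h. Igj, the joining chain that plasma cells add to secreted antibodies, gave -0.27, -0.60 and 0.02 in the fed pools and -3.71, -3.25 and -3.45 at 72 h, a 9.10-fold lower level (-3.19, adjusted p = 4.86e-06). Of the B and plasma cell list, 3 of 7 genes were measured, of which Igj and the B cell gene Ms4a1 were lower, and the mean log2 ratio of the list was 0.01 to 0.06 in the fed pools and -1.31 to -1.19 at 72 h. The list's median difference was -0.79, beside -3.19 for Igj. The remaining gene, Cd22, gave 0.05, 0.19 and -0.17 in the fed pools and 0.08, 0.25 and 0.17 at 72 h and was not called. Of the T cell list 3 of 12 genes were measured by 4 probes, of which 1 of Cd3z was lower. The list's mean went from between 0.19 and 0.25 to between -0.19 and -0.06, with a median difference of -0.32. Lck gave 0.19, 0.19 and 0.21 in the fed pools and -0.68, -0.76 and -0.43 at 72 h and was not called. The other Cd3z probe went from 0.04, 0.01 and -0.07 to 0.14, -0.14 and 0.13. Cd3e went from 0.49, 0.56 and 0.31 to 0.51, 0.47 and 0.22, and neither was called. Of the pan-leukocyte list 3 of 4 genes were measured and Ptprc was lower, while Laptm5 and Coro1a were not called. Laptm5 gave -0.21, -0.08 and -0.39 in the fed pools and 0.12, 0.19 and 0.07 at 72 h. The list's mean was -0.21 to -0.12 in the fed pools and -0.37 to -0.10 at 72 h, but its median difference was 0.23. Of the granulocyte and mast cell list 4 of 8 genes were measured by 5 probes, of which the Mpo probe A_65_P12925 was 3.65-fold higher (1.87) and the other Mpo probe differed by -0.08. The list's mean was 0.01 to 0.25 in the fed pools and 0.41 to 0.56 at 72 h, but its median difference was -0.06, so that the higher mean rests on that 1 probe. The macrophage list had only Lyzs of 9 genes. The mean of its 2 probes ran from -2.38 to 1.31 in the fed pools and neither was called, so this list cannot show whether macrophages changed. Of the epithelial list, 4 of 11 genes were measured and Vil2 was higher, while Vil, Apoa1 and Apoa4 were not called. Vil went the other way, from -0.59, -0.33 and -0.48 in the fed pools to -0.86, -0.60 and -0.79 at 72 h. The list's mean was -0.27 to 0.03 in the fed pools and 0.02 to 0.11 at 72 h. Of the smooth muscle list 5 of 6 genes were measured, of which Des (1.38) and Myh11 (0.98) were higher, and the list's mean went from between -0.71 and 0.02 in the fed pools to between 0.08 and 0.33 at 72 h. The part of these cells in the changes of the members was not tested.

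Among cytokines and their receptors, the 2 receptor chains that join to bind interleukin-13 moved in opposite directions. Il13ra1, on the X chromosome (GRCm38.p6, 36112108 to 36171262), gave 0.19, -0.09 and -0.06 in the fed pools and -1.43 and -1.79 in the 2 pools measured at 12 h. The later pools gave -1.34, -1.13 and -1.35 after 24 h, then -1.10, -1.14 and -1.07 after 72 h. All fasted pools lay at or below -1.07 and all fed pools at or above -0.09. It was 3.07-fold lower at 12 h (-1.62, SE 0.18, adjusted p = 0.0015), 2.44-fold lower at 24 h (-1.29, SE 0.16, adjusted p = 0.00094) and 2.17-fold lower at 72 h (-1.12, SE 0.16, adjusted p = 0.00097). Leaving out any 1 array ended none of these 3 calls. The Cy3 part was -0.91, -0.91 and -0.94 at 12, 24 and 72 h, and the Cy5 part 0.71, 0.38 and 0.18. The larger ratio difference at 12 h thus lay in the reference channel.

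Il4ra, the chain shared by the receptors of interleukins 4 and 13, lies on chromosome 7 (GRCm38.p6, 125552271 to 125579474). Its log2 ratios were 0.02, -0.09 and -0.29 in the fed pools. They were 0.88, 1.04 and 1.44 after 12 h, 0.78, 1.03 and 0.28 after 24 h and 0.66, 0.85 and 0.62 after 72 h. No fasted pool overlapped the fed pools. The level was 2.37-fold higher at 12 h (1.24, SE 0.20, adjusted p = 0.0046), with 1.77-fold at 24 h (adjusted p = 0.023) and 1.78-fold at 72 h (0.83, SE 0.20, adjusted p = 0.017). The call at 12 h held when any 1 array was left out, but most of that difference lay in Cy5 (-0.73) rather than Cy3 (0.51). Stat6, the STAT protein that acts below these receptors, differed at 72 h by -0.07 and 0.38 in its 2 probes, with neither called.

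**Figure D4:**
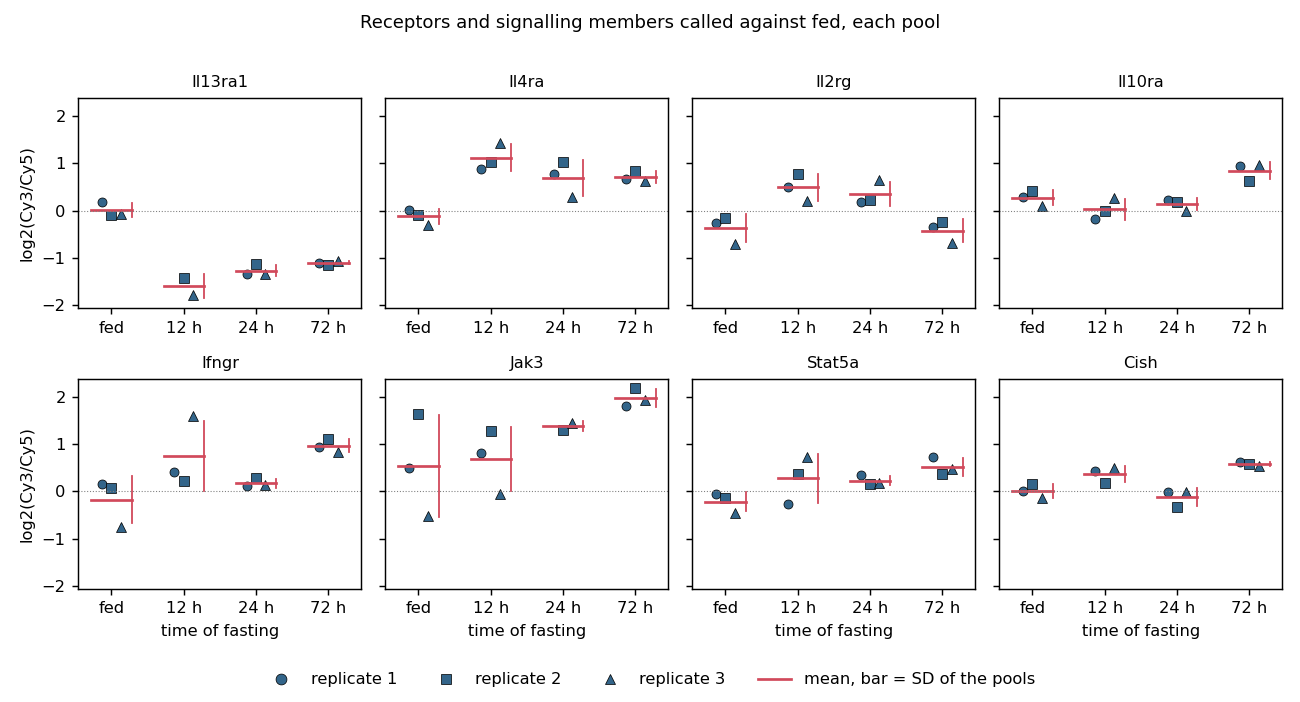
log2(Cy3/Cy5) of cytokine receptors, Jak3, Stat5a and Cish for each pool, with the mean (line) and SD (bar) of each time point. Il13ra1 lies at or below -1.07 in every fasted pool, and Il4ra at or above 0.28, with the fed pools of both near 0.

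The common gamma chain Il2rg, shared by the receptors of interleukin-2, interleukin-4 and interleukin-7, was higher at 12 h and 24 h and was not called at 72 h. Its probe was not well above background on any fed array, where it read -0.25, -0.15 and -0.71, and it gave 0.50, 0.77 and 0.20 after 12 h, 0.19, 0.23 and 0.65 after 24 h and -0.34, -0.23 and -0.69 at 72 h. Il2rg was at least 1.10-fold higher at 12 h, with a fitted difference of 0.86 (adjusted p = 0.021), and the fitted difference at 24 h was 0.73 (adjusted p = 0.041). From 24 h to 72 h it fell by 0.78 on the log2 scale (adjusted p = 0.030).

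Il10ra, the ligand-binding chain of the interleukin-10 receptor, gave 0.30, 0.42 and 0.11 in the fed pools and 0.95, 0.63 and 0.97 at 72 h. It was 1.49-fold higher (0.58, SE 0.17, adjusted p = 0.042), with a larger part in Cy5 (-0.44) than in Cy3 (0.14). The call held in only 3 of 12 omissions of 1 array and in 6 of 11 other settings. Il6st, which encodes the signalling chain gp130 of the interleukin-6 family, was 1.49-fold lower at 24 h in the probe A_65_P01836 (-0.57, adjusted p = 0.040), while its other probe differed by 0.16. The 17 genes with more than 1 probe held 37 probes, and for 11 of them all probes shared a direction at 72 h.

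Of the 12 interleukin and colony-stimulating factor probes, only Il18 was called at 72 h, where 10.6% of all probes were. Il18, a cytokine that the epithelium keeps as a precursor and that promotes interferon-gamma production, gave -0.17, -0.11 and 0.49 in the fed pools and -0.97, -0.52 and -1.13 at 72 h. The groups did not overlap, and the level was 1.92-fold lower (-0.94, SE 0.25, adjusted p = 0.029) and 2.04-fold lower than at 24 h (adjusted p = 0.021). Its inhibitor Il18bp differed by 0.66 at 72 h (adjusted p = 0.11). Il17e, now named Il25 and made by epithelial tuft cells, read 0.79, 0.71 and 0.67 in the fed pools and -0.11, 0.20 and -0.02 at 72 h, a difference of -0.70 that missed the threshold (adjusted p = 0.068). Il16, a chemoattractant for T cells, had a value in only 1 pool at 12 h, -0.95. Its difference of -0.91 from fed (adjusted p = 0.041) counts among the calls at 12 h, but the fit assumes that this lone pool varies like those of the other time points.

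Neither Il1b nor Tnf, of the inflammatory cytokines, was called at any time. Il1b differed by -0.46, 0.04 and 0.15 and Tnf by 0.13, 0.28 and 0.18 at 12, 24 and 72 h, and Tnf was well above background on no fed array. Csf2, Csf3 and Il2 were likewise not well above background on any fed array, which limits what a test of them can show. Tlr4, the receptor for bacterial lipopolysaccharide, differed by 0.38 at 72 h and was not called.

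Chemokines included 2 that were lower at 72 h among 5 probes, where 5.7% of all probes were lower. All 5 differences were negative, from -0.73 to -0.45, beside a median of 0.01 for all probes. The 5 probes stand for only 4 genes. Cxcl16, a membrane-bound chemokine for T cells and natural killer T cells, gave -0.08, -0.11 and 0.29 in the fed pools, -0.69, -0.57 and -0.76 at 12 h and -0.72, -0.56 and -0.71 at 72 h. It was lower at 12 h (1.63-fold, adjusted p = 0.015) and 72 h (1.62-fold, -0.70, SE 0.16, adjusted p = 0.011), and neither call held without fed replicate 3. Ccl9, a chemokine for myeloid cells, gave 0.13, -0.23 and 0.08 in the fed pools and -0.73, -0.67 and -0.81 at 72 h, 1.66-fold lower (-0.73, SE 0.18, adjusted p = 0.018).

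Ccl2, which draws monocytes, was 1.51-fold lower at 24 h (-0.59, adjusted p = 0.048), but the sample channel differed by 0.09 and the reference by 0.68. Cxcl12, the ligand of CXCR4, was 1.53-fold lower at 12 h in the probe A_65_P12749 (-0.61, adjusted p = 0.033), again with more of the change in Cy5 (0.44) than in Cy3 (-0.17), while its other probe differed by 0.12. The 6 chemokine receptor probes gave no call against fed at any time, and Cxcr4 differed by -0.15 at 72 h. Of all probes, 10.8%, 10.1% and 10.6% were called against fed at 12, 24 and 72 h.

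Among the kinases and STATs, 2 of 16 probes were higher at 72 h, Jak3 and Stat5a, and 2 lower, of which Stat2 is given above. Of all probes, 4.85% were higher and 5.7% lower. Jak3, the kinase that binds the common gamma chain, gave 0.49, 1.63 and -0.52 in the fed pools, which spread widely, and 1.81, 2.18 and 1.95 at 72 h. It was 2.72-fold higher (1.45, SE 0.43, adjusted p = 0.046), but leaving out 1 array moved the difference between 0.92 and 2.00 and ended the call in 8 of 12 cases. Stat5a, a STAT protein below many cytokine and growth hormone signals, was 1.67-fold higher at 72 h (0.74, SE 0.22, adjusted p = 0.047), a call that 10 of the 12 omissions ended.

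Stat5b, the close relative of Stat5a, was instead lower by 0.68 on the log2 scale at 12 h (adjusted p = 0.038, 2 pools measured) and differed by 0.06 at 72 h. Jak2 gave -0.51, -0.79 and -0.37 at 12 h and 0.11, 0.43 and 0.10 at 24 h, a 1.71-fold higher level at 24 h than at 12 h (0.77, adjusted p = 0.025) whose Cy5 part (-0.63) exceeded the Cy3 part (0.14). Tyk2, the kinase of the type I interferon receptor, differed by 0.61 at 72 h (adjusted p = 0.059), and the 2 probes of Jak1 by -0.43 and -0.11, none of them called. Stat3, below interleukin-6 and interleukin-10, differed by -0.64 (adjusted p = 0.082) and -0.31, and Stat4 by 0.01.

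Of the feedback inhibitors, Cish, a target of STAT5, gave 0.01, 0.15 and -0.15 in the fed pools, -0.01, -0.33 and -0.02 at 24 h and 0.62, 0.59 and 0.53 at 72 h. The 72 h pools lay above all fed and 24 h pools. It was 1.49-fold higher than fed (0.57, SE 0.16, adjusted p = 0.031) and 1.62-fold higher than at 24 h (0.70, adjusted p = 0.013). The probe named Socs4 on the array, whose gene is now Socs6, was lower by 0.59 on the log2 scale at 12 h (adjusted p = 0.037), although its Cy3 channel differed by 0.36 in the other direction. Socs3, the main inhibitor induced by STAT3, differed by 0.18 at 72 h and was not called, and nor were the 2 probes of Socs2.

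Among the TNF family, Tnfsf13b, the ligand BAFF that keeps B cells alive, was the only call among 9 ligand probes. Its log2 ratios were 0.66, 0.51 and 0.46 in the fed pools. They were 0.07, -0.18 and 0.21 after 12 h, -0.20, 0.17 and 0.19 after 24 h and -0.56, -0.71 and -0.10 after 72 h. All fasted pools lay below all fed pools. The level was 2.00-fold lower at 72 h (-1.00, SE 0.19, adjusted p = 0.0040), a call that no omission of 1 array ended, while the differences of -0.51 at 12 h and -0.49 at 24 h were not called. None of the 16 probes of TNF receptors and TNF-induced proteins was called at 72 h. Of all probes, 10.6% were called at 72 h, 4.85% higher and 5.7% lower. Tnfaip2 was 1.79-fold lower at 24 h in the probe A_65_P01538 (-0.84, adjusted p = 0.022) and differed by -0.08 in its other probe.

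The channels were also compared apart, since a difference in log2(Cy3/Cy5) can come from either. In Cy5, which by the labelling protocols holds the same reference RNA on every array, although another label of fed replicate 3 names only its own mice, limma called none of the 20273 probes tested between the 72 h and fed arrays, and 836 (4.12%) had an unadjusted p under 0.05, 8 of them members. In Cy5 at 12 h, 21.7% of all probes and 22 members were called, at 24 h 20.6% and 15, for 24 h against 12 h 13.7% and 14, and for 72 h against 24 h 13.9% and 12. In Cy3 alone the calls were 14.8% of all probes and 19 members at 12 h, 24.6% and 22 at 24 h, 8.42% and 15 at 72 h, 8.26% and 7 for 24 h against 12 h, and 16.7% and 19 for 72 h against 24 h. All 17 members called at 72 h had a Cy3 difference in the same direction, 9 of them called in Cy3 alone, and for 16 of the 17 the Cy3 part was the larger. Of the 12 calls at 12 h, 11 had a Cy3 difference in the same direction and 5 a larger Cy5 than Cy3 part, and of the 9 calls at 24 h these numbers were 7 and 4.

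**Figure D5:**
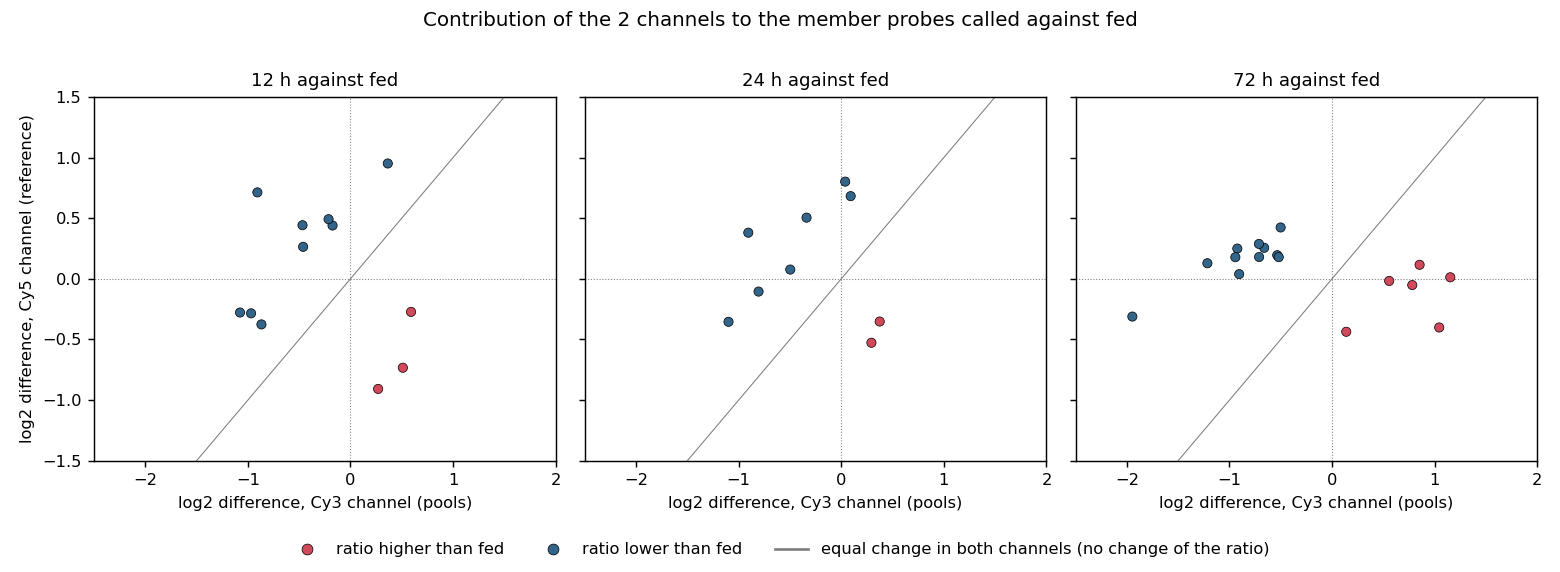
Difference from the fed pools in the sample channel (Cy3, x axis) against that in the reference channel (Cy5, y axis), both on the log2 scale, for the members called at 12, 24 and 72 h, coloured by whether the ratio was higher or lower than fed, with a line where both channels change alike. At 72 h the points lie between -0.44 and 0.42 in Cy5, with Isg15 at -1.95 in Cy3 and -0.31 in Cy5, whereas at 12 h they reach up to 0.95 (Socs4) in Cy5.

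The fed arrays weigh on the size of these differences. Of the 11 members lower at 72 h, fed replicate 3 was the highest fed pool for 8, and of the 6 higher it was the lowest for all 6. Isg15, Ifi47, Tnfsf13b and Il13ra1 kept their calls at 72 h under every omission of 1 array, and these 4 also kept them under the 11 other settings tried that give such a call. At 12 h the calls of Il4ra and Il13ra1 were kept under every omission, and at 24 h only that of Il13ra1.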

How the data were processed

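RNA of 12 pools of small intestine, 3 for each of 4 time points, was measured on 2-colour Agilent arrays, and samples were grouped by the fasting time in their labels. The authors deposited Feature Extraction output, which lists for every spot and channel the median intensity of the spot and of its background, before any correction or normalization. The deposited files also hold the software's log10 ratio of Cy5 over Cy3, and the deposited value table the same ratio with the opposite sign in all 257352 cells. In some cells of these ratios the decimal point was lost. Such cells were rescaled by their size or left out, and these ratios served only as an alternative.

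Background was corrected with normexp (offset 50) on 21446 spots per array, the 24 channels were quantile normalized, 1075 control spots and spots flagged as outliers (0.27% to 5.47% of an array) were left out, and spots of a probe were averaged. log2(Cy3/Cy5) was fitted over all 12 arrays, by limma 3.58.1 (R 4.3.3), as time point means with eBayes and Benjamini-Hochberg adjustment over all probes. The methods of the study use a Split-Factor analysis of variance, which was not repeated. Its thresholds, p under 0.01 and a 1.4-fold change, were applied to the limma fit as an alternative. The columns of the 2 channels were fitted alone in the same way. Other alternatives varied the background correction, the normalization, the filter and the arrays.

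Named members are all those called in any of 5 comparisons, and a set of ligands, receptors, kinases, STATs, inhibitors and regulatory factors that stand for the steps of the pathway, named whatever their values. The values of some named members are not reported here, although they remain in the counts. The members, the list of other pathway genes and the marker lists were chosen with earlier results of these data known. Gene names are those of the 12 h files, and 110 of the 114 probes were found in a GRCm38.p6 annotation, 12 under another symbol. Where no array of a time point had a probe well above background, its fold is a bound, computed in Cy3 after loess and Aquantile normalization and open to dye bias. The fit was also run on simulated data with independent normal noise on each array. Those data held neither a difference in format nor outlying arrays, so that run does not bear on either. The number of arrays limits the precision.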

Additional observations from a re-analysis of the deposited data

Results flagged for a closer look

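Some members differed from the shared fed pools by another amount at one fasting time than at another, by the limma contrast between the 2 times. From 12 h to 24 h this held for Jak2 (0.77 on the log2 scale). From 24 h to 72 h it held, among others, for Ifi30 (-0.82), Isg15 (-0.93), Isgf3g (-0.68), Il18 (-1.03), the Cxcl12 probe A_65_P14521 (-0.88), Il2rg (-0.78) and Csf1r (-0.50), which were lower at 72 h, and for Cish (0.70), Il10ra (0.71) and Tnfaip2 (0.77), which were higher. The step from 24 h to 72 h cannot be told apart from the change of file format. For all 12 probes called in that step the Cy3 channel differed in the same direction, and 6 of them were called in Cy3 alone. None of the 13 calls held under every omission of 1 array, and for Jak2 the Cy5 part exceeded the Cy3 part.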

How the results depend on the processing

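For 12 h, 24 h and 72 h against fed, 24 h against 12 h and 72 h against 24 h, 12, 9, 17, 1 and 12 members were called. With the replicate block the counts were 6, 4, 13, 1 and 9, but each pool number stands for different mice, same-numbered arrays did not deviate together (correlations -0.301 to 0.128, median -0.037) and 4 of 12 arrays correlated best with their own number, so the numbers do not pair the samples. Without background correction there were 5 calls (3 higher, 2 lower) at 24 h and 11 (2 higher, 9 lower) at 72 h. Plain subtraction gave 2 higher and 12 lower at 72 h. Loess gave 20 at 24 h, 20 for 72 h against 24 h and 0 for 24 h against 12 h, where 18 had an unadjusted p under 0.05, and median centring gave 18 at 24 h and 0 for 24 h against 12 h (12 unadjusted). The software's own ratio gave 4 at 12 h and 14 at 24 h. Cy3 alone gave 19, 22, 15, 7 and 19, and Cy5 alone 22, 15, 0, 14 and 12. The direct test against Cy5 gave 28, 16 and 40, and the thresholds of the methods 18, 12, 20, 6 and 19. Fits of only the 2 groups compared gave 0, 13, 29, 0 and 35, with 26 and 14 at an unadjusted p under 0.05 for the counts of 0. Leaving out 1 array gave 2 (fed replicate 3) to 32 (12 h replicate 1) at 12 h, 1 (fed replicate 1 or 24 h replicate 1) to 19 (12 h replicate 3) at 24 h, 6 (fed replicate 3 or 72 h replicate 1) to 29 (12 h replicate 3) at 72 h, 0 (any 24 h array) to 7 (12 h replicate 1) for 24 h against 12 h, and 1 (72 h replicate 1) to 29 (12 h replicate 3) for 72 h against 24 h. The cause was not tested. Of 123 such counts, 60 stayed within 1.5 times.

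Of 7436 values of named probes, 6861 kept direction and side of the threshold, 368 no longer passed, 201 newly passed and 6 reversed. The reversals were in Cy3 alone for Socs4 at 12 h (0.36), Ifi205 at 24 h (0.04) and from 12 h to 24 h (1.08), and Ccl2 at 24 h (0.09) and from 24 h to 72 h (-0.55), and in the direct test for Tnfaip2 at 72 h (0.42). Their cause was not tested. The block for slide or scan date was not run, since the files used here give neither. The low Cy5 signal over background limits all ratios, and 18 members were well above background on no fed array.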
